A study of Drosophila melanogaster with 2 samples.

Results

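The genes described here are ush, which encodes U-shaped, and the 5 genes for GATA transcription factors of Drosophila melanogaster, pnr, srp, grn, GATAd and GATAe. They are 6 of the 18164 genes annotated on the chromosome arms once transposable elements are set apart. The set was chosen by measured values: ush was selected on the signal of a peak in its intron, and the GATA factor genes were added as the family its protein partners come from. The signal at ush is therefore given as a description, and no test is made of it. A summit, the position of highest enrichment in a peak, was assigned to a gene when it lay in the gene body or within 5 kb of it, a span called the window below.

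The peaks come from chromatin immunoprecipitation and sequencing (ChIP-seq) of whole embryos, male and female together, 0 to 24 h old. The embryos came from a transgenic line in which the zinc finger protein CG4282 is fused to GFP at its C-terminal end, and chromatin was pulled down with an antibody to GFP. The study holds 1 group of 2 biological replicates, numbered 3 and 4, so the values cover 1 condition and no difference between conditions exists to be tested. Whole embryos mix all tissues, and no peak could be assigned to a cell type. A control file entered the peak calling, but no untagged line or control library was analysed here.

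U-shaped is a zinc finger protein of the Friend of GATA family. It binds the zinc finger of a GATA factor and, in flies, often restrains what that factor activates. Pannier, the product of pnr, patterns the dorsal ectoderm, the notum with its bristles, and the heart. Serpent, from srp, is needed for blood cells, fat body and endoderm, and GATAe acts after it in the midgut. grn encodes Grain, which shapes epithelia and guides motor axons, and GATAd is expressed in the gut.

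The 10 peaks of the authors' optimal list in the ush window include the second strongest of that list, whereas the windows of the 5 GATA factor genes held none. The sequences below show 5 of the ush summits and the strongest summits at pnr and grn. The ush set has the strongest summit, its neighbour towards the start of the nested gene cbt, a pair of overlapping peaks farther along the same intron, and a distal summit. All were read from the Release 6 genome sequence of RefSeq, the assembly named dm6, on its plus strand, and each is centred on the summit. Capitals mark the words bound by GATA factors (AGATAA or the variant AGATAG, and TGATAA or the variant TGATAG), the word TATCGATA of the DNA replication-related element (DRE), and the core CGATA that the insulator protein BEAF-32 recognises, each on either strand.
ush strongest summit, chr2L:480982-481182: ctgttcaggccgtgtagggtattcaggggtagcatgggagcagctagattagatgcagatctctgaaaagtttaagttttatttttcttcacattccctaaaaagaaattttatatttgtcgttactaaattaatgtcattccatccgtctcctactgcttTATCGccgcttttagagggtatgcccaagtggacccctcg
ush summit near the cbt start, chr2L:480048-480148: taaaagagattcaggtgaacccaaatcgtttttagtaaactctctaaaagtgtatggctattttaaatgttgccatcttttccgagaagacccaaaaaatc
ush first summit of the pair, chr2L:485836-485936: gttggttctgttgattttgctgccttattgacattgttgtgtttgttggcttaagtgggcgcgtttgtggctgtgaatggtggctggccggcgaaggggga
ush other summit of the pair, chr2L:486040-486140: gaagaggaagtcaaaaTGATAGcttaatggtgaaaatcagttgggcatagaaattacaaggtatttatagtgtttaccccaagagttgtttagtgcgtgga
ush distal summit, chr2L:510571-510671: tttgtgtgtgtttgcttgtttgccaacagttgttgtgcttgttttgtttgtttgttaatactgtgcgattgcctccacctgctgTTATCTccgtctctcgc
pnr promoter summit, chr3R:16025952-16026052: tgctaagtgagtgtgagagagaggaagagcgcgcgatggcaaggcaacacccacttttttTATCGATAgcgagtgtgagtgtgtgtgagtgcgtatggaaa
grn promoter summit, chr3R:8181525-8181625: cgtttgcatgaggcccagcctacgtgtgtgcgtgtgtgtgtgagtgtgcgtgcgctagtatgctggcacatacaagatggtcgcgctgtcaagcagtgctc

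The signal is the value the authors' peak caller gave to each peak. It can be ranked within a list but not compared in size between lists, and the reads behind it, and so the depth, are unknown here. The optimal list held 1985 peaks with signals of 66.9 to 1065.5. These were the 1985 strongest of the pooled list of 30000 peaks, which reaches down to weak peaks and background and is called relaxed. A relaxed list of the same length was made for either replicate. For a limit of equal size, the strongest 1985 peaks of each replicate were also counted, which start at a signal of 27.1 in replicate 3 and of 43.2 in replicate 4.

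The gene ush (FBgn0003963) lies on 2L from 476220 to 540560, on the plus strand, and is 64.3 kb long. It has 5 annotated transcripts that start at 4 sites. Its window of 74.3 kb held 10 optimal and 48 pooled relaxed summits, with 52 relaxed summits in replicate 3 and 44 in replicate 4. Of the optimal summits, 9 lay in the gene body. That is 0.135 optimal summits per kb against 0.0148 over all arms, and 0.646 pooled relaxed summits per kb against 0.224.

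The strongest peak of ush, at 2L 480915 to 481267, had a pooled signal of 965 and rank 2. Its signal was 395 in replicate 3, where it ranked 3, and 566 in replicate 4, where it ranked 2. The replicates' summits lay 21 bp apart. The peak stood in the first intron of ush, 4862 bp downstream of the first start of the gene. That intron spans 49.1 kb or 13.2 kb, depending on the transcript. Only transcripts that begin at the first start have it, and the others start downstream of the peak. The nearest transcription start site (TSS), however, was that of cbt, 1394 bp away. cbt (FBgn0043364, 2L 476446 to 479688, minus strand) is nested in the intron and encodes Cabut, a zinc finger transcription factor that acts in dorsal closure. The strongest peak thus lay upstream of cbt as well as inside ush, and the files do not assign it to either gene.

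Around it stood a group of summits in the first 14.0 kb of the gene. The summit at 480098, 984 bp before the strongest, had a pooled signal of 252 and rank 110, with ranks of 120 in replicate 3 and 103 in replicate 4. It was 410 bp from the cbt TSS, and so counted as a promoter summit of cbt. A weaker peak 874 bp after the strongest, at 481956, had a signal of 66.9 and rank 1980, close to the end of the optimal list. In replicate 3 it ranked 1546 and in replicate 4 it ranked 3176, outside the strongest 1985.

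The pair of overlapping peaks had summits at 485886 and 486090, 204 bp apart and 9.67 and 9.87 kb into the gene. The first had a signal of 190.5 and rank 206, with ranks of 518 in replicate 3 and 138 in replicate 4. For the other, the signal was 69.4 and the rank 1826, and the nearest replicate summits ranked 3178 and 1355. Both are in the first intron, 4949 and 4745 bp from the nearest TSS. At 490261 a peak of signal 77.0 and rank 1497 lay in an exon of the 5' UTR of ush, 574 bp before the start that an ush transcript shares with the non-coding gene lncRNA:CR46258. It ranked 812 in replicate 3 and 2776 in replicate 4.

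A distal group began 20360 bp farther on, in introns of ush before its last starts. Its summits were at 510621, 516272 and 520909, with signals of 93.5, 72.4 and 72.8 and ranks of 999, 1680 and 1659. The first of these ranked 2529 in replicate 3 and 815 in replicate 4, and the next 2564 and 1933. The last ranked 1411 and 3178, so none of the 3 was among the strongest 1985 of both replicates. The remaining optimal summit, at 472410, was at -3.81 kb from the first ush start and 210 bp from a TSS of the neighbouring gene CG4297. It had a signal of 198 and rank 189, and ranked 274 and 168 in the replicates.

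**Figure D1:**
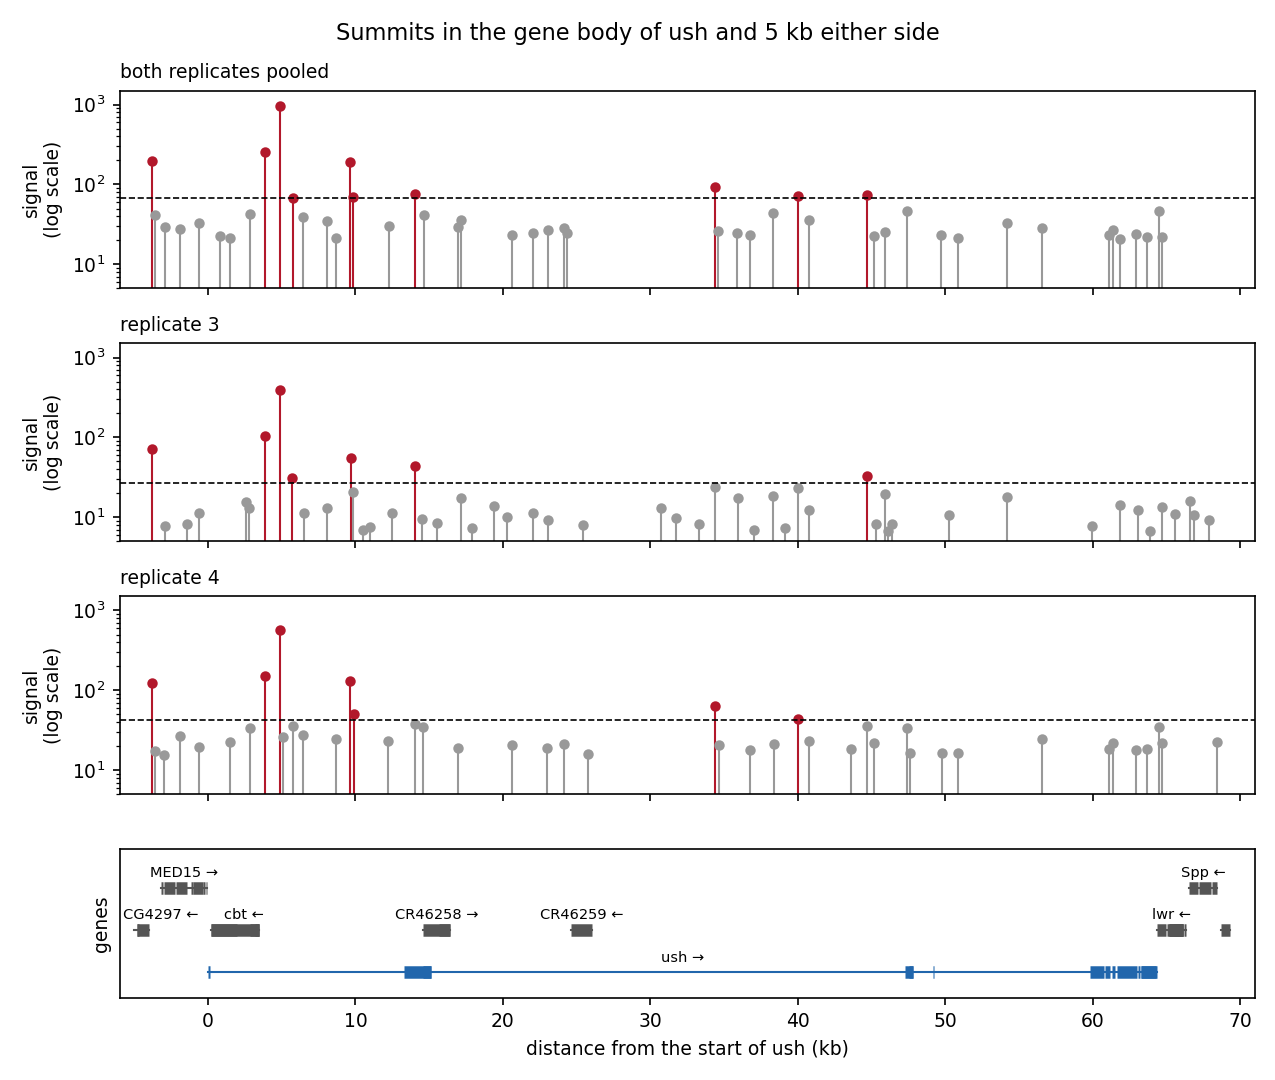
Signal of each summit in the ush window (vertical axes, log scale) against distance from the start of ush in kb, for the pooled list and for each replicate, with the annotated exons of ush and its neighbours at the bottom (CR46258 and CR46259 are non-coding genes). Red stems are among the strongest 1985 peaks of their list, grey stems are not, and dashed lines mark the signal at rank 1985; the strongest stem lies 4.86 kb from the start in the pooled list and replicate 4 and 4.88 kb in replicate 3, and the distal red stems differ between the replicates.

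With the 2 summits at the starts of cbt and CG4297 set apart, 8 optimal summits remained in the ush window. The strongest peak was also in the window of MED15, a Mediator subunit gene that ends just before ush. No optimal summit lay within 500 bp of any ush TSS. The nearest pooled relaxed summits to the 4 ush starts were 620, 56, 177 and 93 bp away. Their signals were 32.8, 41.1 and, for the last 2 starts, which share a summit, 46.0, with ranks of 10119, 5721 and 4359. Being outside the optimal list, these summits are weaker than every optimal one by definition. All were above 29.0, the median signal of the 48 pooled summits in the ush window. The replicates differed here. The summit nearest the second start ranked 15342 in replicate 3 and 3439 in replicate 4. For the last 2 starts, the nearest summit was 847 and 1117 bp away in replicate 3, and 149 and 96 bp away in replicate 4.

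The log2 ratio of the replicate 4 signal to that of the overlapping replicate 3 peak ran from -0.23 to 1.40 over the 10 ush peaks, with a median of 0.64. Over the 1983 optimal peaks that met a peak in both replicates, the median was 0.53 and the 5th and 95th percentiles were -0.27 and 1.62. Of the ush ratios, all 10 lay between these percentiles. The ratio also carries the scales of both lists, so its level cannot be read as a difference between replicates. By overlap, 5 of the 10 ush peaks met one of the strongest 1985 in both replicates, compared with 1314 of 1985 optimal peaks, or 66.2%. Counted by the nearest summit, which separates the overlapping pair, the number was 4. No share over all optimal peaks was made in that way, so the 66.2% is not its background. All 4 had pooled ranks of 206 or better, while the 6 others ranked 999 or lower. The pooled signal draws on both replicates, so a high pooled rank goes with high replicate ranks by construction.

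**Figure D2:**
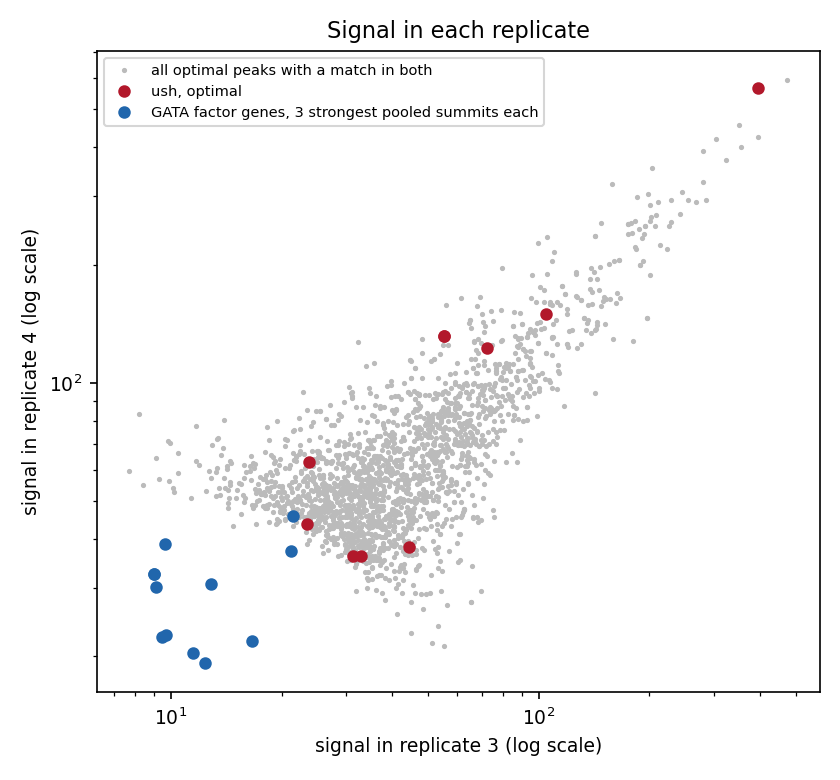
Signal in replicate 3 (horizontal, log scale) and replicate 4 (vertical, log scale) of all optimal peaks with an overlapping peak in both replicates (grey), of the ush optimal peaks (red) and of the 3 strongest pooled summits of each GATA factor gene where both replicates had a match (blue). The overlapping ush pair shares a point, as does the summit in the windows of both srp and GATAe. The strongest ush peak stands at 395 and 566, near the upper end of the grey points, and the blue points lie at the lower left edge.

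None of the 5 GATA factor genes had an optimal summit in its window. Together their windows held 40 distinct pooled relaxed summits, 40 in replicate 3 and 44 in replicate 4. Among all 18164 genes, 28.1% had an optimal summit in the window, and 39.9% of the 3142 genes whose windows were within the members' range of 15.5 to 74.3 kb. With 1 of 6 members, and that member chosen for its peak, the count says nothing about GATA genes beyond these 5 values. Their pooled relaxed density was 0.204 per kb at grn, 0.233 at pnr, 0.388 at GATAd, 0.465 at srp and 0.499 at GATAe, against 0.224 over the arms. All 6 members had a pooled relaxed summit in the window, as did 88.3% of all genes.

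The gene closest to the optimal list was grn (FBgn0001138, 3R 8147368 to 8181444, minus strand). A summit 131 bp upstream of its only start had a pooled signal of 66.7 and rank 1992, just below the 66.9 of the weakest optimal peak. Its signal was 21.4 with rank 3024 in replicate 3, and 45.6 with rank 1734 in replicate 4, where it was among the strongest 1985. Replicate 4 alone thus placed the grn promoter inside a list of this size. The next summit of grn, in an intron 5748 bp from the start, had a signal of 41.1 and rank 5723.

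GATAd (FBgn0032223, 2L 10333734 to 10339185, plus strand) is the shortest of the genes, at 5.45 kb, and has close neighbours. The strongest of its 6 pooled summits had a signal of 56.6 and rank 2772, and lay 477 bp inside the gene from its second start. Its ranks were 3075 in replicate 3 and 2933 in replicate 4. An intronic summit 1195 bp from that start had a pooled rank of 4880. In replicate 3 a summit at the same position ranked 1718, which put it among the strongest 1985 there. Replicate 4 had no summit within the gene body other than the one near the start. The others lay at neighbouring genes. A summit at the promoter of Sps2, which encodes a selenophosphate synthetase, had a signal of 48.8, and a summit in the coding sequence of Cox10, which acts in heme A synthesis, had one of 43.9.

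At pnr (FBgn0003117, 3R 16026079 to 16041796, plus strand), the strongest of 6 pooled summits was 77 bp upstream of the first start, with a signal of 41.6 and rank 5566. It ranked 4762 in replicate 3 and 13645 in replicate 4, and both replicates placed the summit at the same base. A summit in the coding sequence near the end of the gene was nearly as strong, at 40.5 and rank 5912. The order of these 2 summits was the reverse in replicate 4, where the best rank in the window, 5174, was that of the coding summit.

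srp (FBgn0003507, 3R 15986152 to 16004085, plus strand) and GATAe (FBgn0038391, 3R 16009105 to 16019133, plus strand) are adjacent, and their windows share 4 pooled summits. The strongest summit of both windows lay between the genes, in an exon of lncRNA:CR42839, with a pooled signal of 39.2 and rank 6436. It ranked 4308 in replicate 4, and the overlapping peak of replicate 3 ranked 17095 with its summit 129 bp away. Inside the gene bodies, the best pooled ranks were 9530 at srp, in its 3' UTR, and 15221 at GATAe, in an intron. Promoter summits of both genes were weak, with ranks of 25619 and 26010 at srp and 18008 at GATAe.

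By best pooled rank the order was ush, grn, GATAd, pnr, and then srp with GATAe. The best ranks of grn and GATAd changed places between replicates, at 3024 and 1718 in replicate 3 and 1734 and 2394 in replicate 4. Those of pnr (4762 and 5174), srp (7549 and 4308) and GATAe (9647 and 4308) kept no order either. In both replicates ush ranked ahead of the others, and grn and GATAd ahead of pnr, srp and GATAe. The rest of the order differed by less than the replicates did. The best rank of GATAd in replicate 4 was that of the summit in Cox10. At least 1 of the strongest 1985 peaks fell in the windows of ush and GATAd in replicate 3 and in those of ush and grn in replicate 4. The same held for 27.8% of all genes in replicate 3 and 27.3% in replicate 4.

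**Figure D3:**
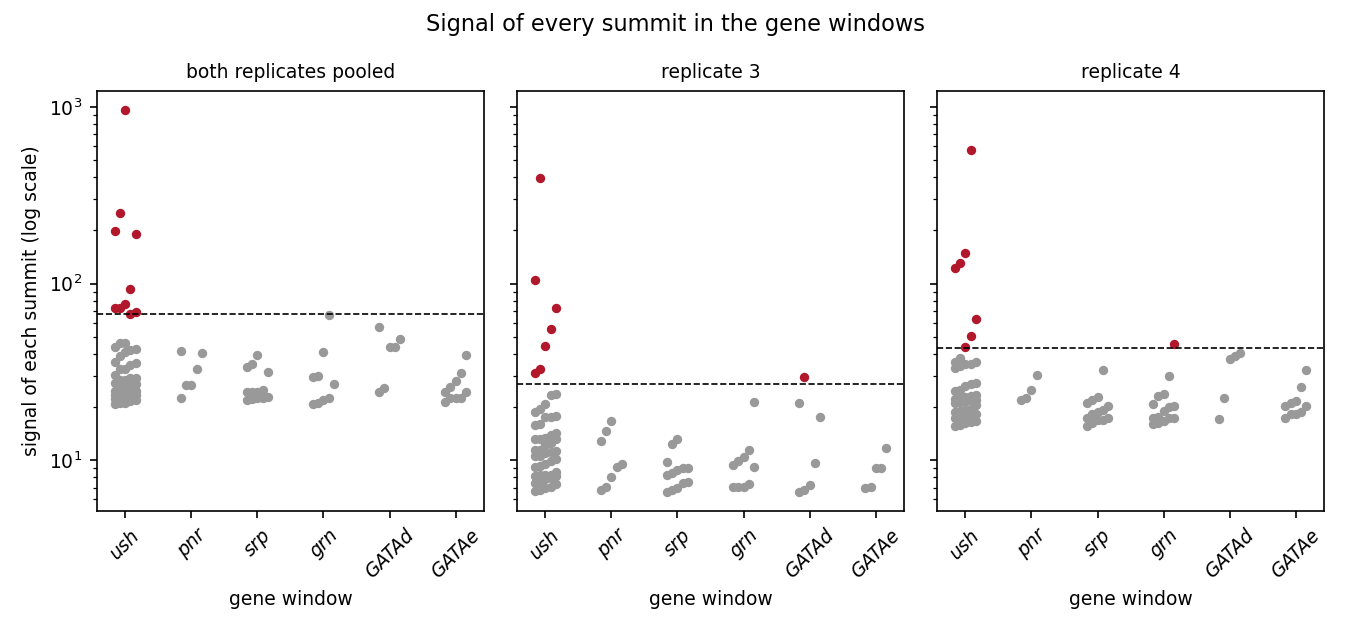
Signal of every summit (vertical axis, log scale) in the windows of ush and the 5 GATA factor genes, in the pooled list and each replicate; points are spread sideways for legibility. Red points are among the strongest 1985 peaks of the list, and dashed lines mark the signal at rank 1985. Red points appear at ush in all panels, at GATAd only in replicate 3 and at grn only in replicate 4.

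A long window meets more peaks. Among the 208 genes with a window at least as long as that of ush, the median number of optimal summits was 0, and 116 had none. Windows with 10 or more optimal summits belonged to 3 genes including ush, or 0.0165% of all genes and 1.44% of those 208. The other two, CG1677 and lncRNA:CR44357, overlap each other on the X and have windows of 135 and 249 kb. This count goes with the peak that chose ush and is given as a description. Optimal summits within 500 bp of an own TSS were found at 9.58% of all genes and at none of the 6 members.

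**Figure D4:**
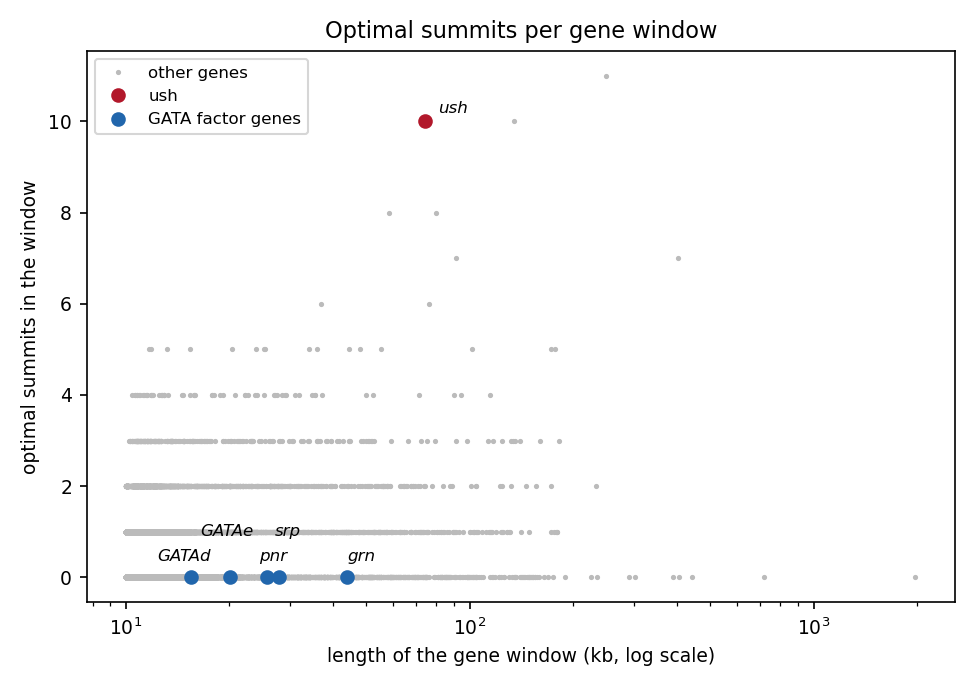
Number of optimal summits in the window of each annotated gene (vertical axis) against the length of that window in kb (horizontal axis, log scale). Grey points are all genes, the red point is ush with 10 summits in 74.3 kb, and blue points are the GATA factor genes, all at 0.

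The choice of 5 kb set what was counted at the edges. Just inside the ush window was the summit at the CG4297 start, and just outside it, 5454 bp before ush, was one in an intron of CG4297 with a signal of 140.1 and rank 414. The nearest optimal summit after ush was 33893 bp away. For the GATA factor genes the nearest optimal summit outside the window was at the promoter of CG5013, 7750 bp beyond pnr, with a signal of 97.4 and rank 913. At 10 kb it would have given pnr an optimal summit. For srp the nearest was 11642 bp away, for GATAd 17562 bp, for GATAe 30413 bp and for grn 33211 bp.

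Words bound by GATA factors were looked for because the products of these genes bind them. Within 50 bp on either side of the summit, 2 of the 10 ush peaks held one of the 4 words, the peaks at 486090 and 510621. Among all optimal peaks the share was 17.7%, and among the 486 in introns it was 21.8%. Pooled peaks that ranked below the optimal list had the words in 13.5%. With 100 bp on either side the count was 5 of 10, with a share of 31.9% over all optimal peaks. The strongest ush peak had none in either window.

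Words known from promoters were searched next. The DRE was within 50 bp of none of the 10 ush summits, in 3.93% of all optimal peaks and in 0.206% of those in introns. The core CGATA, which the DRE contains, was in none of the 10, in 21.0% of all optimal peaks and in 11.9% of those in introns. In the wider window the strongest ush peak held it once, 61 bp from the summit. At the pnr promoter, the relaxed summit had a DRE starting 10 bp after it, a word found in 0.750% of pooled peaks that ranked below the optimal list. That share covers peaks of every class, and none was made over promoter peaks alone. The DRE is its own reverse complement and holds the bases GATA, but none of the 4 words of GATA factors. Neither the grn promoter summit nor the strongest ush summit had a DRE.

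The summit of the strongest ush peak was rich in A and T. G and C made up 27.7% of the bases in the same 50 bp on either side, compared with a median of 39.6% over all optimal peaks (quartiles 32.7 and 46.5) and 36.6% over those in introns. The other ush peaks ranged from 25.7% to 51.5%. Other words searched in the same windows were GAGAG of GAGA factor, in 2 of the 10 ush peaks and 12.7% of optimal peaks, and CAGGTA of Zelda, in 1 and in 1.91%. CACACACA was in 1 and in 2.22%. None of the 10 held CAGCTG, an E-box, found in 6.40% of optimal peaks, or GGTCACACT of M1BP, found in 1.06%. CATCNCTA, a core promoter word, and the word CACAGTGG were likewise in none of the 10 and in 2.92% and 4.94% of optimal peaks. A match is a run of letters and not a measured binding site.

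Genes for proteins that bind GATA or Friend of GATA proteins, and for the chromatin complexes these recruit, were counted as a list of 11. The list was chosen with earlier results of these data known, so its counts are a description. An optimal summit lay in the window of 9 of the 11 genes, or 81.8%, against 28.1% of all genes. Among genes with windows of 15.5 to 74.3 kb, the members' range, the share was 39.9%. Caf1-55, HDAC1, Chi, Bap60 and MBD-like have shorter windows and sbb a longer one, so 39.9% is not matched to this list in length. The median best pooled rank of the list was 967, compared with 5275 over all genes, and its median window was 20.1 kb against 11.7 kb. The highest signals were at Caf1-55 (389.9, rank 43), which encodes a histone-binding subunit of several chromatin complexes, and at osa (323, rank 59), a subunit of the Brahma remodelling complex. Next was Mi-2 (215, rank 152), the ATPase of the NuRD complex, which Friend of GATA proteins recruit in mammals. Their ranks were 27, 48 and 175 in replicate 3 and 59, 86 and 159 in replicate 4.

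These summits were not always at the named gene. That of Caf1-55 lay 125 bp from the start of Art3. The osa summit was inside the osa gene body, in an exon of lncRNA:CR46035. Mi-2 had its summit in its own intron, which overlaps Su(Tpl). CtBP, the corepressor that U-shaped binds, had an intronic summit of signal 93.9 and rank 989, with ranks of 1083 and 1038 in the replicates. HDAC1, simj, sbb, Chi and Bap60 made up the 9, with best pooled ranks from 354 to 1985. Bap60, at 1985, held the last place of the optimal list, and ranked 1565 in replicate 3 and 3057 in replicate 4. The best summit of HDAC1 lay in an intron of Src64B, that of Chi at the start of HSPC300 and that of Bap60 at the start of CG12096. The NuRD genes MBD-like and MTA1-like had best ranks of 2675 and 5451. The list is small. When gene bodies alone were counted, 5 of 11 had an optimal summit, against 5.69% of all genes. A count in gene bodies depends on gene length, and the partner genes are longer than most. No share over genes of like length was made for bodies alone, so the gap cannot be separated from length.

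Developmental genes that work with ush and the GATA factors made up 5 further lists, also chosen with earlier results of these data known. Without the members, 2 of 10 genes of the amnioserosa and germ band retraction had one, tup (135, rank 458, at the start of CG10602) and raw (67.7, rank 1922). Of 12 genes that pattern the thoracic bristles, 5 had one, with the highest signals at tup, emc (93.4, rank 1003) and Chi (90.5, rank 1069, at the start of HSPC300). For heart formation the count was 2 of 13, Mef2 (398, rank 42, at the start of Pdrg1) and dpp (75.6, rank 1554). The blood cell list counted 4 of 16, led by Hml (156, rank 326, in an intron of the neighbouring CG8745), zfh1 (154, rank 333) and N (125, rank 553). In the endoderm and gut list 3 of 9 had one, fkh (165, rank 280), dpp and cad (67.8, rank 1919). Their medians of best rank ran from 2922 to 4428.5, compared with 5275 over all genes, and their shares from 15.4% to 41.7%, to be read against the 28.1% of all genes. Their windows were longer, with medians of 15.97 to 26.5 kb against 11.7 kb. Among genes with windows of 15.5 to 74.3 kb, the members' range and not that of these lists, the share was 39.9%. Over the 54 genes of these 5 lists, each taken once, 13 had an optimal summit, or 24.1%. With the partner genes added, the count was 21 of 64.

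Several of these peaks differed between replicates. raw ranked 19576 in replicate 3 and 1113 in replicate 4, and wg, a Wnt gene of the bristle list with a pooled rank of 1292, ranked 7898 and 649. Stat92E, the transcription factor of the JAK/STAT pathway in the blood cell list, had its best summit in an intron of DPCoAC, which ranked 9346 and 849. fkh (340 and 254) and Mef2 (32 and 48) ranked high in both.

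The peaks most like the strongest of ush were those in other introns with the nearest ranks, by the distance of log10 ranks over the pooled list and both replicates. They were in CG11050 (ranks 4, 5 and 3, in the order pooled, replicate 3, replicate 4), Lk6 (5, 4 and 6), CG32772 (10, 8 and 16), CG9663 (13, 12 and 17) and NFAT (20, 25 and 20). Their distances from the ush ranks were 0.413, 0.634, 1.22, 1.37 and 1.69. Lk6 encodes a kinase of the translation factor eIF4E and NFAT a transcription factor. The likeness is in rank alone.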

How the data were processed

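The values used are the signal values in column 7 of the peak lists the authors deposited. Per the deposited file listing, each replicate's relaxed list was made from its alignments and 1 control file, the pooled list from both replicates, and the optimal list from these by the irreproducible discovery rate. The sources used here do not name the aligner, the peak caller, their versions or the cutoff. The dm6 lists were analysed and the dm3 lists were not used.

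Peaks were ranked by signal within each list and placed by summit with Ensembl release 115 gene models, whose arms match dm6. Promoter means within 500 bp of a TSS. Summits elsewhere were classed by the annotated feature they fell in, exons before introns. A replicate peak matched by an overlap of at least 1 bp, the strongest being taken. Python 3.11.15 and matplotlib 3.10.9 were used, and counting, matching and word search were tested on simulated data. The members, lists and words were chosen with earlier results of these data known. Named are the members, up to 3 genes of each list with the highest optimal signal, and the 5 peaks most like that of ush. Further genes named for their ranks, such as raw, wg, cad and Stat92E, were chosen after their values were seen. Alternatives were other windows, list sizes, single replicates, matches and word windows. The depth is unknown, so no interval or floor is given.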

Additional observations from a re-analysis of the deposited data

How the results depend on the processing

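Over 17 results and 82 alternatives, 54 values stayed close to the first one, within 1.5 times for counts and shares or within the spread between replicates for ranks. The others were as follows. With windows of 10 kb, 2 members had an optimal summit, the best pnr rank was 913 and 34 of the 64 genes of all lists, partners included, had an optimal summit. With gene bodies alone, 5.69% of all genes, 13 of the 64 and 5 partner genes had one, and the best ranks were 5912 at pnr, 9530 at srp, 5723 at grn and 15221 at GATAe. With the lists limited to their stronger 50%, 4 optimal and 43 pooled summits fell in the members' windows, and 16.4% of all genes and 13 of the 64 had an optimal summit. Leaving out either replicate gave 2 members with a summit in the list, 0 to 1 with a promoter summit and a rank of 2 to 3 for the strongest ush peak. The best ranks were then 4762 to 5174 at pnr, 1734 to 3024 at grn and 1718 to 2394 at GATAd. Those of srp (4308 to 7549) and GATAe (4308 to 9647) counted as close, although the replicates differed widely there. For these genes the spread came from the same 2 ranks, so a wide disagreement passes as close and a narrow one does not. A TSS window of 1000 bp gave 1 member a promoter summit, ush. GATA words were in 0 ush peaks and 8.16% of optimal peaks within 25 bp of the summit, and in 5 and 31.9% within 100 bp. The bare core GATA, within 50 bp, was in 2 of the 10 ush peaks and in 50.7% of optimal peaks. The alternative that sets apart summits at the starts of other genes was added after the data were seen. The cause of these changes was not tested, apart from windows and lists that hold fewer or more peaks by construction.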

Other observations

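Apart from ush, the genes with the most optimal summits in their windows, picked after the counts were seen, were lncRNA:CR44357 (11) and CG1677 (10), which overlap on the X. Then came Raf, a kinase of the receptor tyrosine kinase pathway, and Tlk, a kinase of chromatin assembly, with 8 each, also on the X. RapGAP1 and kirre had 7 each. The window of kirre was 404 kb long, against 58.4 kb at Raf, 79.8 kb at Tlk and 91.2 kb at RapGAP1. Among these genes, the best pooled rank was 49 at Raf and 62 at Tlk, whereas the best ranks at CG1677 (347), RapGAP1 (315) and kirre (492) were lower. The pathway gene Mef2 and simj, which encodes a NuRD subunit, had 5 each.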
